A study of Mus musculus with 4 samples.

Results

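The histone genes described here are the replication-dependent genes of the mouse histone clusters, and their Zeb1 peaks were taken as the rows of the deposited peak list whose gene symbol begins with Hist1h, Hist2h, Hist3h or Hist4h. The rule found 25 of 17435 peaks, each named for a different gene. The reference held 70 genes with such names, 67 of them protein-coding and 3 pseudogenes. The list came from chromatin immunoprecipitation followed by sequencing (ChIP-seq) in D3 cells, an established line of mouse embryonic stem cells (mESC), at passages 5 to 8. The cells were kept without feeders in ground state medium (GS), in which MEK was inhibited with PD0325901 at 1 μM and GSK-3 with CHIR99021 at 3 μM, and LIF was added at 20 ng/mL. Fragments of about 200 bp from chromatin fixed in 1% formaldehyde gave 3 Zeb1 ChIP libraries, made with 8 μg of antibody, and 1 input library. Both groups shared the same cells and medium, so that the only comparison was Zeb1 ChIP over input. Each peak of the list carries the authors' means alone, of treatment reads, of input reads and of the enrichment over input, a ratio normalized for mapped reads. No SD or test between libraries was therefore possible for any peak. The authors drew 30 M reads at random from every sample before alignment, and the list does not give how many of them were kept in each library.

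Replication-dependent histone genes code for the H2A, H2B, H3 and H4 proteins of the nucleosome core and for the linker histone H1, and they are transcribed mainly in S phase, when new DNA has to be packaged. They are short, mostly without introns, lie in clusters, and many H2A and H2B genes share a promoter from which they are transcribed in opposite directions. Zeb1 is a zinc finger factor that binds E-box sequences and is known mainly as a repressor of epithelial genes.

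The promoters of the divergent H2A and H2B pairs are shown first, since most of the histone peaks with more than 1 gene lay over them. Each line gives the bases between the start sites of a pair, read 5′ to 3′ on the plus strand of GRCm38.p6 (the assembly of mm10) from the RefSeq promoter table. Capitals mark the CCAAT box, the core promoter letters TATAAA, the octamer ATTTGCAT and the E-box letters CACCTG on either strand. These stretches lay between transcripts and held no exon of the pair. The first 4 lay inside a Zeb1 peak, and the last 3 lay in no peak. Around both starts of the last pair, 0% of the 50-base stretches occur once in the reference.
Hist1h2ae-Hist1h2bg: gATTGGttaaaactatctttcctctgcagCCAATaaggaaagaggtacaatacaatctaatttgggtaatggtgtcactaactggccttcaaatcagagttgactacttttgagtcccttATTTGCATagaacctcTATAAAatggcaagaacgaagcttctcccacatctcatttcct
Hist1h2ah-Hist1h2bk: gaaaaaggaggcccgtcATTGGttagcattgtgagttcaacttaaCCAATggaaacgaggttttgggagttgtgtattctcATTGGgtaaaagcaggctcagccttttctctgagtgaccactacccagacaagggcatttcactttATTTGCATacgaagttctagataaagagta
Hist1h2aj-Hist1h2bm: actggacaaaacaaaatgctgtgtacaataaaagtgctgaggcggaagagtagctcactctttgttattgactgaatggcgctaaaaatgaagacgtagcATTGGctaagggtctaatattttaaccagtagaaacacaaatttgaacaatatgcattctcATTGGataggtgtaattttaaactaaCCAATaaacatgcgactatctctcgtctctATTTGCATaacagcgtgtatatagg
Hist1h2bf-Hist1h2ad: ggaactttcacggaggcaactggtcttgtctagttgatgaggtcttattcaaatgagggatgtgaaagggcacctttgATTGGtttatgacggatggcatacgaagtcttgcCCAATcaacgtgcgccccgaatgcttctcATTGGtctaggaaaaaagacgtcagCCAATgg
Hist1h2ak-Hist1h2bn: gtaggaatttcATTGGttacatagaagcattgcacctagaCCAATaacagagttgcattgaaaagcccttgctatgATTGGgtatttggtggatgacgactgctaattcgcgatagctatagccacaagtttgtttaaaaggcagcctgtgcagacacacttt
Hist1h2ag-Hist1h2bj: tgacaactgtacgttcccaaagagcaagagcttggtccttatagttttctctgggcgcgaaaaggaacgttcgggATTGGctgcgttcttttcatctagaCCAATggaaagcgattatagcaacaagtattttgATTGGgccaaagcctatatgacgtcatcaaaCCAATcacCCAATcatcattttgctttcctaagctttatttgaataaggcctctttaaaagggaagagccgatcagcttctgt
Hist1h2bq-Hist1h2ao: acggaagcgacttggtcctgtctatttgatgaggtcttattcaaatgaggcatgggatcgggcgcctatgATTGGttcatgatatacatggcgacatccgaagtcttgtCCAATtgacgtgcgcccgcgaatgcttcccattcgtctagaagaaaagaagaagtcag
In the same order, these stretches were chr13:23571221-23571399, chr13:22035644-22035820, chr13:21721802-21722043, chr13:23574208-23574380, chr13:21753913-21754075, chr13:22042950-22043197 and chr13:21810200-21810366. The Hist1h2ae, Hist1h2ah and Hist1h2aj stretches each held the octamer. The other 4 did not hold it, and all 7 held CCAAT at least 2 times.

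For comparison, the 250 bases before the start of 3 H4 genes, whose peaks had the 3 highest enrichments of the histone peaks, are given on the strand of the gene with the same capitals.
Hist1h4b: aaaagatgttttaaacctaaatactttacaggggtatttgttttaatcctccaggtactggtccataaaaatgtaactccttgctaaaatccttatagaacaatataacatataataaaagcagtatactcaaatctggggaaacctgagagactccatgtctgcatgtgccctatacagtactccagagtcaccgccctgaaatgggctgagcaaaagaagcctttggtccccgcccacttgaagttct
Hist1h4i: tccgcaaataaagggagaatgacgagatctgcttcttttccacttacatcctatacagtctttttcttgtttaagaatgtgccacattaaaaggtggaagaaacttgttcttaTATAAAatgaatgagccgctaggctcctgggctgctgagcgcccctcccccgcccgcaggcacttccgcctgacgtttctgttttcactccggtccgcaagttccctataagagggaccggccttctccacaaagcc
Hist1h4k: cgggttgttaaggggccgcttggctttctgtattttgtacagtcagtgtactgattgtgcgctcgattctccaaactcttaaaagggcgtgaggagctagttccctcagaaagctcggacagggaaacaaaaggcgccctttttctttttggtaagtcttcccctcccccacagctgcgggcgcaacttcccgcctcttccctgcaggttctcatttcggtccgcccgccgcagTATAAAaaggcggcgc
They came from chr13:23756687-23756936 on the plus strand, chr13:22041363-22041612 on the minus strand and chr13:21750554-21750803 on the minus strand. The stretches before Hist1h4i and Hist1h4k held TATAAA, while that before Hist1h4b did not. None of the 3 held CCAAT or the E-box letters CACCTG.

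Of the 25 peaks, 22 lay on Chr. 13, in the large Hist1 cluster, 2 on Chr. 11, in the Hist3 cluster, and 1 on Chr. 3, in the Hist2 cluster. No peak was named for Hist4h4, the H4 gene on Chr. 6, whose start was 3120 bp from the nearest peak. By histone class, 4 peaks were named for H1 genes, 5 for H2A, 7 for H2B, 4 for H3 and 5 for H4. The gene named for a peak was not the only histone gene there. Of the 25 peaks, 11 held the transcription start site (TSS) of 1 histone gene, 11 held 2 and 2 held 3. The remaining peak, which held none, was placed between genes.

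Counted by gene, 40 of the 70 histone genes had a TSS inside a peak of the list. Among the 67 protein-coding histone genes the count was 37, or 55.2% (95% Wilson interval 43.4 to 66.5%, for counting error only), where 47.7% of all 21000 protein-coding genes with a curated transcript had one. The background lay inside the interval of the histone genes. This count takes in 8 genes around which under 10% of the 50-base stretches occur once in the reference, none with a start inside a peak. Without them the share was 37 of 59, or 62.7% (49.95 to 73.9%), an interval above the 47.7%. With the same cut on 100-base stretches, which leaves out 4 genes, it was 37 of 63, or 58.7% (46.4 to 70.0%), and the interval held the 47.7%. The cut was chosen after the data were seen and was not applied to the other protein-coding genes. The intervals of this share, here and by class below, take the genes as independent although several shared a peak. With peaks of enrichment 5 or more, 30 of the 67 had a TSS inside a peak, against 39.3% of all protein-coding genes. In 34 of the 67 the whole gene lay inside the peak. The same was not counted over all genes, and most histone genes are short beside histone peaks of 1300 bp or more. The deposited list names 25 genes, and 16 further histone genes had a TSS inside a peak without being named. 1 of these, the pseudogene Hist1h2al, lay far from the cluster under a peak named for Nxnl2, with enrichment 8.1, which is not among the 25.

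By class, 4 of 6 H1 genes, 11 of 18 H2A, 11 of 18 H2B, 6 of 12 H3 and 5 of 13 H4 protein-coding genes had a TSS inside a peak. With all 67 genes counted, the share was highest for the linker histone H1, at 66.7% (30 to 90.3%), and lowest for H4, at 38.5% (17.7 to 64.5%). The first place of H1 does not hold without the genes under 10% at 50 or 100 bases, none of which is an H1 gene. All 5 intervals overlapped and held the 47.7% of all protein-coding genes.

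**Figure D1:**
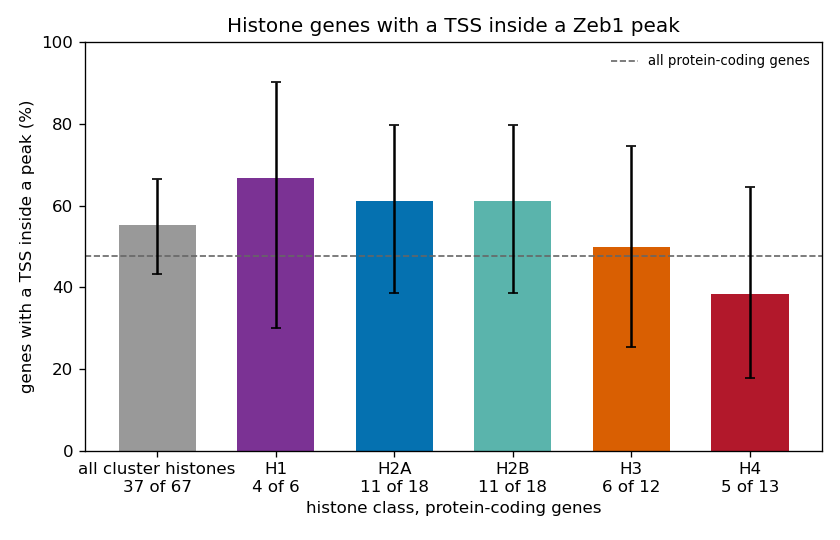
Share of protein-coding histone genes with a TSS inside a Zeb1 peak, in percent, for all 67 genes and for each histone class. Error bars are 95% Wilson intervals for counting error only, and the dashed line is the share of all protein-coding genes, 47.7%, which lies inside every interval.

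Along the clusters, histone genes were grouped into segments wherever more than 100 kb separated neighbours. The longest segment, of 233 kb on Chr. 13 from Hist1h4h to Hist1h1a, had 20 of 29 genes with a TSS inside a peak, or 69.0% (50.8 to 82.7%), and 13 of the peaks. The 47.7% of all protein-coding genes lay below this interval, which takes the genes as independent although several shared a peak. A second Chr. 13 segment of 122 kb, from Hist1h2bl to Hist1h2br, had 8 of 19 genes, or 42.1% (23.1 to 63.7%), and 5 peaks. In its last 6 genes, from Hist1h2bq to Hist1h2br, no start lay inside a peak, and around each of the 6 under 10% of the 50-base stretches occur once. Without them the segment had 8 of 13 genes, or 61.5% (35.5 to 82.3%), and with the cut on 100-base stretches 8 of 15, or 53.3% (30.1 to 75.2%). Of the 5 genes from Hist1h2ah to Hist1h2bj, 3 had a start inside a peak, or 60.0% (23.1 to 88.2%), and both Hist1h2ba and Hist1h2aa did (interval 34.2 to 100%). The Hist2 segment on Chr. 3 had 3 of 10 genes, or 30% (10.8 to 60.3%), all under 1 peak, and the Hist3 segment had 3 of 3 (43.9 to 100%), under 2 peaks. The intervals of these 5 other segments all held the 47.7%. The segment counts take in pseudogenes, while the 47.7% is of protein-coding genes alone. Of protein-coding genes, the second Chr. 13 segment had 7 of 18 and the Hist3 segment 2 of 2.

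Genes other than histones within the clusters were mostly without a peak. Between the first and the last Hist1 gene of Chr. 13, leaving aside the distant Hist1h2al, the reference held 49 other protein-coding genes with a TSS, and 3 of them, or 6.12% (2.10 to 16.5%), had it inside a peak. They were Pom121l2, with enrichment 6.4, Zfp184, with 5.3, and Zfp322a, with 6.2. Of all protein-coding genes, 47.7% had a TSS inside a peak. Of the 49, 36 were genes of the Vmn1r family of vomeronasal pheromone receptors, none of which had a TSS inside a peak. How much sequence around the starts of these neighbours occurs once in the reference was not computed. Only 1 of the 49, the iron regulator Hfe, had its start inside a segment of histone genes, and it had no peak. No such neighbour lay in the Hist2 or Hist3 cluster.

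The histone peaks were of ordinary strength within the list. Their median enrichment was 6.42, with quartiles of 5.05 and 7.13, and the median of all peaks was 6.5, with quartiles of 4.91 and 8.53. The deposited enrichment is not the quotient of the deposited reads. Taken as treatment over input reads, the median was 3.01 in the histone peaks and 3.13 in all peaks with input reads, and the enrichment was a median of 2.15 and 2.07 times that quotient. Over the 9096 peaks within 1 kb of a TSS the median was 6.75. Of the 25, 19 had enrichment of 5 or more, or 76.0% (56.6 to 88.5%). The share was 74.0% of all peaks and 81.4% of those within 1 kb of a TSS. The median histone peak had 45.7 treatment reads and 14.5 input reads, where the median over all peaks was 47.4 and 16. In reads per kb the histone peaks had medians of 22.7 treatment reads and 7.70 input reads, and all peaks 25.1 and 8.07. The length of the histone peaks ranged from 1300 to 3300 bp, and its median was 1950 bp beside 1850 bp for the whole list. Relative to the list, 11 histone peaks were above its median enrichment and 14 below, 4 were above its upper quartile (3 of them named for H4 genes) and 6 were below its lower quartile.

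**Figure D2:**
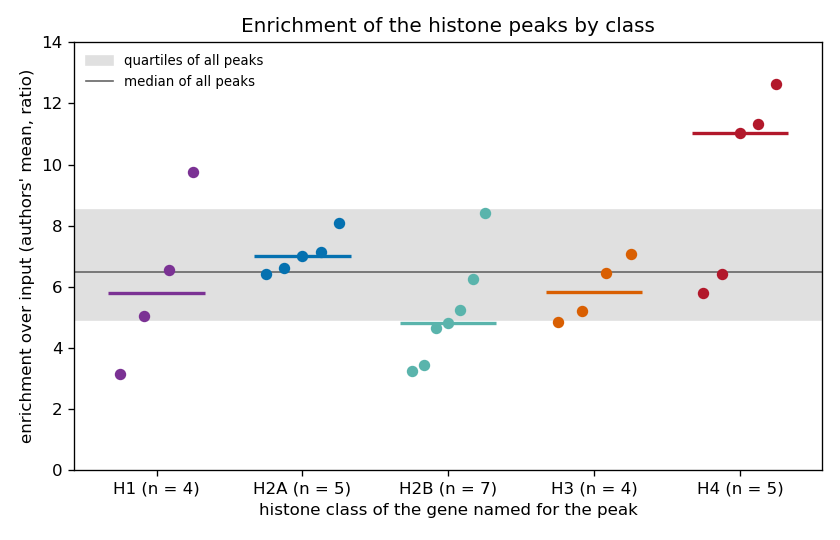
Enrichment over input of the 25 histone peaks, by the class of the gene named for the peak. Points are peaks and short lines class medians, the grey band spans the quartiles of all peaks (4.91 to 8.53), and the 3 highest points are the H4 peaks of Hist1h4b, Hist1h4i and Hist1h4k.

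The 3 highest enrichments belonged to peaks over single H4 genes, which code for a core histone. The Hist1h4b peak (chr13:23756401-23757700) had enrichment 12.7, with 36 treatment reads and 5.5 input reads, the lowest input of the 25 peaks, and the quotient of these reads was 6.55. The Hist1h4i peak (chr13:22040351-22041800) had enrichment 11.3 with 66 treatment and 12.8 input reads, and at 45.5 treatment reads per kb it was the densest of the 25. The Hist1h4k peak (chr13:21749651-21751000) had enrichment 11.0 with 52.6 treatment and 10.4 input reads. These values lay above 94.0%, 90.7% and 89.8% of all peaks. The other 2 peaks named for H4 genes were lower, with enrichment 6.42 at Hist1h4a, where the peak also covered the H3 gene Hist1h3a, and 5.8 at Hist1h4d. The 5 H4 peaks thus ran from 5.8 to 12.7, with a median of 11.0. The 8 H4 genes without a TSS inside a peak were Hist1h4c, Hist1h4f, Hist1h4h, Hist1h4j, Hist1h4m, Hist1h4n, Hist2h4 and Hist4h4.

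The linker histone peaks covered 1 gene each and spread over much of the range. Hist1h1e (chr13:23621401-23623150) had the fourth highest enrichment, 9.76, with 60 treatment and 13.2 input reads. Hist1h1d followed with 6.56. Hist1h1a (chr13:23763151-23764800) had the fewest treatment reads of the histone peaks, 23, with 11 input reads and enrichment 5.05. Hist1h1b (chr13:21779701-21781000) had the lowest enrichment of the 25, 3.15, with 25.5 treatment and 15.5 input reads, and 5.64% of all peaks were below it. The H1 genes without a peak were Hist1h1c and Hist1h1t, the testis-specific linker histone.

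Peaks named for H3 genes were mostly long and shared with an H2A or H2B gene. The Hist1h3c peak (chr13:23744501-23747650) had the most treatment reads of the histone peaks, 75.2, over 3150 bp, with 32 input reads and enrichment 5.22, and it also held the start of Hist1h2bb. The Hist1h3g peak held the start of Hist1h2af, with enrichment 7.06, and the Hist1h3b peak that of Hist1h2ab, with enrichment 4.85. Hist1h3i was the 1 H3 gene alone in its peak, with enrichment 6.45 and 27.5 treatment reads. The highest read number among the H3 peaks was therefore not the highest enrichment.

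**Figure D3:**
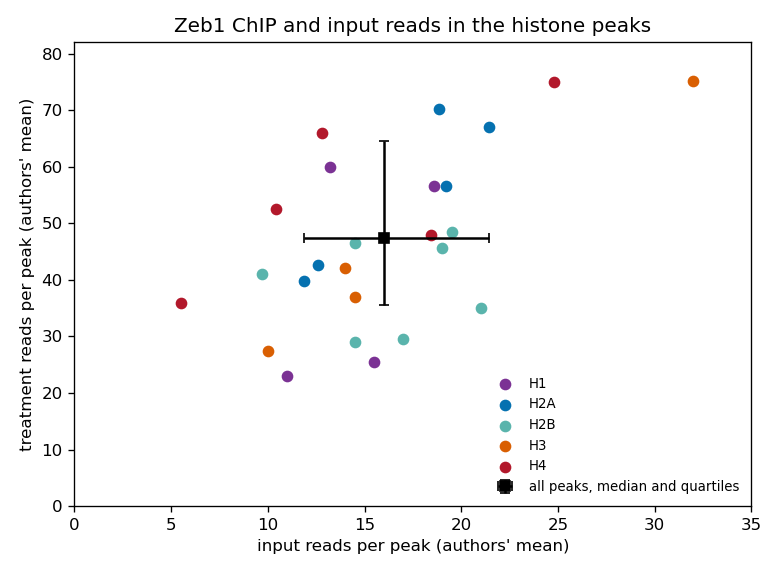
Mean treatment reads against mean input reads for each of the 25 histone peaks, coloured by histone class, with the median and quartiles of all peaks in black. The peak with the most treatment reads, 75.2 at Hist1h3c, also has the most input reads, 32, and the peak with the fewest input reads is Hist1h4b, at 5.5.

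The reference held 14 divergent H2A and H2B pairs, defined as neighbours on opposite strands whose starts face away from each other and are under 500 bp apart. In 9 of them both starts lay inside 1 peak, in 5 neither start lay inside a peak, and in no pair was only 1 start inside. No histone peak was shorter than 1300 bp, so a peak over 1 start of so close a pair would mostly hold the other. Other gene pairs as close were not counted, so this pattern has no background. The starts of a pair were between 164 and 281 bp apart, with a median of 192 bp for the 9 pairs in a peak and 240 bp for the other 5. The centre of the peak was a median of 79 bp from the midpoint of the pair, and between 21.5 and 502 bp.

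Over Hist3h2bb-ps, a pseudogene, and Hist3h2a the peak (chr11:58953551-58955600) had enrichment 8.43, the fifth highest of the histone peaks, with 41 treatment and 9.71 input reads. The Hist2h2ac and Hist2h2be pair lay in the Chr. 3 peak (chr3:96219251-96222050), with enrichment 8.1 and 70.3 treatment reads over 2800 bp, which also held the start of Hist2h2ab. On Chr. 13, the Hist1h2ah and Hist1h2bk pair (chr13:22034501-22036750) had enrichment 7.13 with 39.9 treatment reads. These 3 pairs had the highest enrichment of the 9.

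The Hist1h2ae and Hist1h2bg pair (chr13:23570201-23572300) had enrichment 7.01 with 42.6 treatment reads, and the Hist1h2ac and Hist1h2bc pair (chr13:23682901-23685100) had 6.6 with 56.6. At Hist1h2bl and Hist1h2ai the peak (chr13:21715151-21718450) had enrichment 6.41 with 67 treatment reads and reached over the H3 gene Hist1h3h, which made it the longest of the histone peaks, at 3300 bp. The Hist1h2bf and Hist1h2ad pair (chr13:23573151-23575200) had 6.25 with 46.5 reads. All 4 were within the quartiles of the whole list.

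The Hist1h2aj and Hist1h2bm pair, the first gene of which is a pseudogene, had a peak (chr13:21720951-21722950) with enrichment 4.8 and 48.5 treatment reads. The Hist1h2ba and Hist1h2aa pair, which codes for testis-specific H2B and H2A, had the lowest enrichment of the 9 pairs, 3.25 (chr13:23933301-23935250), with 35 treatment and 21 input reads. The 5 pairs without a peak were Hist1h2ak and Hist1h2bn, Hist1h2an and Hist1h2bp, Hist1h2bq and Hist1h2ao, Hist1h2ap and Hist1h2br, and Hist1h2ag and Hist1h2bj. Around the starts of Hist1h2bq, Hist1h2ao, Hist1h2ap and Hist1h2br, 0% of the 50-base stretches occur once, and the authors kept unique alignments only. The part of this in the lack of a peak was not tested.

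The other 3 peaks named for H2B genes held at most 1 start. Hist3h2ba (chr11:58948501-58949850) had enrichment 5.23 with 45.7 treatment and 19 input reads. Hist1h2be (chr13:23584951-23586300) had 4.65 with 29 treatment and 14.5 input reads. The peak named for Hist1h2bj (chr13:22050151-22051650) was annotated as intergenic, 7670 bp from its TSS by the deposited distance, and had enrichment 3.45 with 29.5 treatment and 17 input reads. It was the 1 histone peak more than 1 kb from the TSS of its gene, and the start of Hist1h2bj itself was 1398 bp from the nearest peak of the list.

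The distance of the peak centre from the start of the named gene is given here by the number of starts covered. In peaks over more than 1 start it depends on which gene the list names. The difference between these groups of peaks was not tested. In the 11 peaks over 1 start the centre lay downstream of it in every case, by 48 to 345 bp, with a median of 275 bp. In the 9096 peaks of the list within 1 kb of a TSS the centre lay downstream in 76.1%, with a median of 147 bp and quartiles of 9 and 303 bp. In the 13 peaks over more than 1 start the distance of the centre from the TSS of the named gene ran from -593 to 388 bp, negative values being upstream, and its median was -63 bp. These distances are the deposited ones. Recomputed from the reference, 21 of the 25 differed by at most 2 bp and the largest difference was 35 bp. A positive distance lay downstream, the opposite of the legend of the deposited list. The peaks over more than 1 start were also longer, at a median length of 2250 bp beside 1350 bp, and had 20.3 treatment reads per kb against 33.8. A longer peak can hold more starts, so length, and with it reads per kb, is tied to this grouping. The median enrichment was 6.42 for the peaks over more than 1 start, beside 6.45 for the peaks over 1 start.

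**Figure D4:**
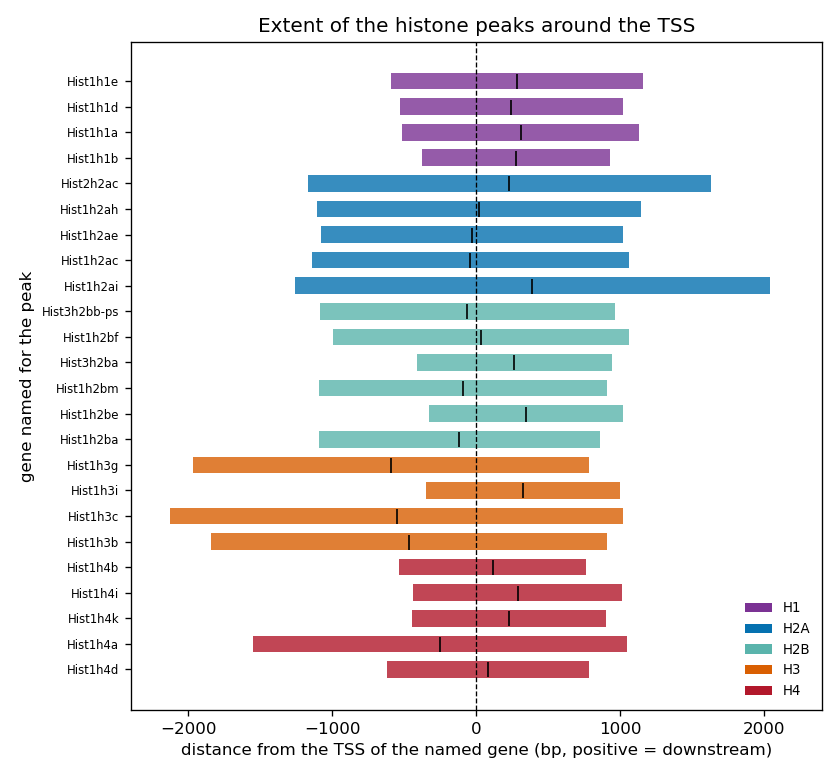
Extent of 24 histone peaks in bp around the TSS of the gene named for each, with positive values downstream and the peak centre as a black tick. The intergenic Hist1h2bj peak is left out. Peaks over 1 start have their centre to the right of the TSS, and the long H3 peaks reach upstream over a neighbouring gene.

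The base composition of the histone peaks is given beside that of all peaks and of peaks within 1 kb of a TSS, where 24 of the 25 lay. The G and C content of the histone peaks had a median of 50.3%. The highest, 54.0%, was below the medians of all peaks, 55.5%, and of peaks within 1 kb of a TSS, 56.9%. In CpG dinucleotides the histone peaks had a median of 43.9 per kb, close to the 40.7 of all peaks. Peaks within 1 kb of a TSS had a median of 52.1 and a lower quartile of 42.6.

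Zeb1 is known to bind an E-box motif, searched here on both strands as CNCACCTG, CNTACCTG, TNCACCTG and TNTACCTG, some of which contain CACCTG. Of the 25 histone peaks 18 held it, or 72.0% (52.4 to 85.7%), where 76.8% of all peaks and 76.2% of the 14644 peaks of the same length range held it. The interval held both values. Per kb, the median number of matches was 0.476 in histone peaks, 0.714 in all peaks and 0.625 in peaks within 1 kb of a TSS. In the 400 bp at the centre of the peak 3 histone peaks held the motif, or 12.0% (4.17 to 30%), against 29.4% of all peaks. The peaks of Hist1h4b, Hist1h4i, Hist1h4k and Hist1h1e, the 4 highest in enrichment, held no match over their whole length, although the shorter CACCTG stood in those of Hist1h4b and Hist1h1e. The lower peaks of Hist1h4a, Hist1h2be and Hist1h2bj, with enrichment 6.42, 4.65 and 3.45, also held no match. CACCTG stood in 20 of the 25 histone peaks, or 80.0% (60.9 to 91.1%), and in 82.1% of all peaks.

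Of 24 matches in the histone peaks, 11 were in the coding sequence of a histone gene, 8 of them in H2A genes, 3 were elsewhere in a histone gene and 10 were outside histone genes. The 3 were in Hist1h3i and in Hist1h2aj and Hist3h2bb-ps, which as pseudogenes were given no coding sequence. How much of the peak sequence the histone genes take up was not computed, so these counts have no background. The following lines show the match nearest the peak centre, with 10 bases on either side and the motif in capitals, for 1 example of the stretch shared by several H2A genes, for 2 near relatives of it and for 3 other peaks.
Hist1h2ae: ggcgccccggTGTACCTGgcggccgtgc
Hist1h2ac: ggcgccccggTCTACCTGgcggccgtgc
Hist1h3c: ggcgctccggTGTACCTGgcggccgaga
Hist3h2ba: ggtgtccggaTGCACCTGcttcagcacc
Hist1h1d: ctgctgccccTGCACCTGtggagaagac
Hist1h3i: gcgtaattccCCTACCTGttaataacaa
The window from the Hist1h2ae peak was chr13:23570943-23570970 on the minus strand of GRCm38.p6, in the coding sequence of Hist1h2ae. The window from the Hist1h2ac peak was chr13:23683752-23683779 on the minus strand of GRCm38.p6, in the coding sequence of Hist1h2ac. The window from the Hist1h3c peak was chr13:23746371-23746398 on the minus strand of GRCm38.p6, in sequence outside histone genes. The window from the Hist3h2ba peak was chr11:58949071-58949098 on the minus strand of GRCm38.p6, in the coding sequence of Hist3h2ba. The window from the Hist1h1d peak was chr13:23555115-23555142 on the plus strand of GRCm38.p6, in the coding sequence of Hist1h1d. The window from the Hist1h3i peak was chr13:21782938-21782965 on the minus strand of GRCm38.p6, in the 3′ untranslated part of Hist1h3i.
The 28 bases shown for Hist1h2ae were identical in 7 peaks, named for Hist1h2ae, Hist1h2ah, Hist1h2ai, Hist1h2bf, Hist1h2bm, Hist1h3b and Hist1h3g, and those shown for Hist3h2ba were identical in the Hist3h2bb-ps peak. The matches are thus not independent of each other. Among protein-coding H2A genes, the motif stood in the coding sequence of 8 of 11 with a TSS inside a peak and of 5 of 7 without. No H4 gene held it in its coding sequence, with a peak or without.

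Promoter elements were counted in the RefSeq promoter table of GRCm38.p6, 250 bases before to 50 after each start, which held 63 promoters of 62 of the histone genes. Hist1h2aj, Hist1h2al, Hist1h2bc, Hist1h3a, Hist1h3f, Hist2h2be, Hist2h4 and Hist3h2bb-ps were not matched. CCAAT, the letters bound by the NF-Y complex, stood in 54 of 63 histone promoters, where 37.4% of all 32851 promoters held it. It was in every H1, H2A, H2B and H3 promoter of the table and in 3 of 12 H4 promoters. TATAAA stood in 35 of 63, against 13.6% of all promoters.

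The octamer ATTTGCAT, the letters bound by the Pou2f1 protein, stood in 14 of 63 histone promoters, 7 of H2A and 7 of H2B genes, against 1.74% of all promoters. It was in 13 of the 34 promoters whose start lay inside a peak and in 1 of the 29 others, that of Hist2h2bb. Both promoters of a divergent pair can hold the same copy, since their windows overlap. Counted once per pair, in the stretches between the starts that the table covers, the octamer stood in 5 of 8 pairs inside a peak and in 0 of 4 pairs without one. Those without a peak include the pair Hist1h2bq and Hist1h2ao, around whose starts 0% of the 50-base stretches occur once. The 29 promoters without a peak likewise include those of all genes under 10% by this measure. TATAAA was in 25 of the 34 promoters with a peak and in 10 of the 29 without, CCAAT in 31 and 23, and CACCTG in 3 and 5. The last was in 20.2% of all promoters. The longer Zeb1 motif stood in 5 of 63 histone promoters, 3 of H1 and 2 of H4 genes, against 16.9% of all promoters. Whether any of these elements bears on the presence of a peak was not tested.

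Many histone genes are near copies of each other, and the authors kept only reads with a unique alignment. Around each start, the share of the 50-base stretches beginning within 500 bp that occur once in the reference chromosomes, both strands counted, had a median of 73.0% (42.0 to 100%) for the 40 genes with a start inside a peak and 57.6% (0 to 100%) for the 30 without. In 8 genes the share was under 10%, and none of these had a start inside a peak. They were Hist1h2bq, Hist1h2ao, Hist1h2ap and Hist1h2br, at 0%, Hist1h4n, at 4.5%, Hist1h4m, at 9.2%, Hist2h3c1, at 5%, and Hist2h3c2, at 7.8%. With stretches of 100 bases, 4 genes were under 10%, those at 0%, and the other 4 were between 10 and 19.2%. For Hist1h2bq, 95.2% of the 50-base stretches occurred also around Hist1h2br, and for Hist2h3c1 91.7% around Hist2h3c2. The part of repeated sequence in the lack of peaks at these 8 genes was not tested. The other 22 genes without a start inside a peak had shares of 10% or more, and for 3 of them, Hist1h1t, Hist2h2bb and Hist4h4, every stretch occurred once.

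**Figure D5:**
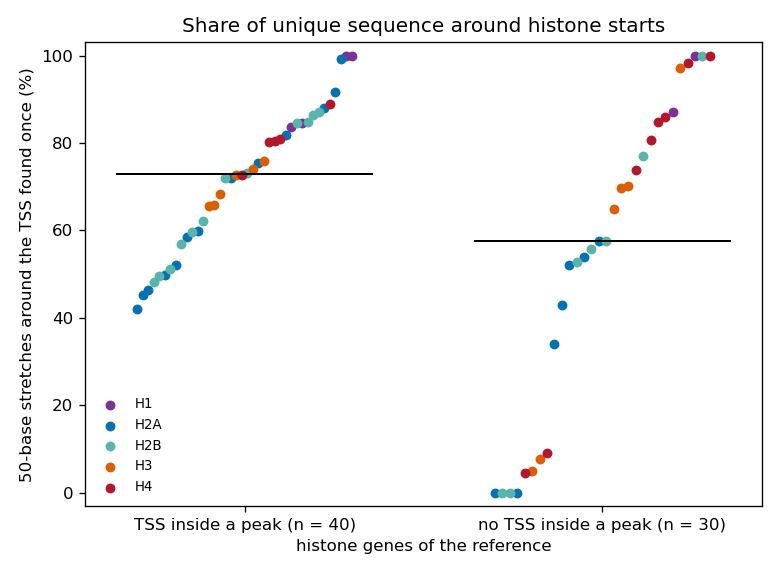
Share of 50-base stretches within 500 bp of the TSS that occur once in the reference, in percent, for the 40 histone genes with a TSS inside a peak and the 30 without, coloured by class and ordered by value, with medians as black lines. The 8 genes under 10% are all in the group without a peak.

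Genes that supply or regulate the replication-dependent histones were taken as a list of 25 genes. A TSS lay inside a peak in 20 of them, or 80.0% (60.9 to 91.1%), beside the 47.7% of all protein-coding genes, and their enrichment had a median of 7.47. Npat, the coactivator of histone transcription, had enrichment 7.6 with 63 treatment reads, its partner Casp8ap2 5.26 with 30, and Hinfp, a factor of H4 promoters, 10.4 with 58.4. The octamer factor Pou2f1 had 7.99 with 89.8, and the NF-Y subunits Nfya and Nfyc had 7.34 with 79.6 and 5.93 with 84.1. Of the genes for processing of histone mRNA, Slbp, which binds its stem-loop, had 11.3 with 88.2, Lsm10 4.18 with 33.2 and Lsm11 9.56 with 77.1. Eri1, an exonuclease of the histone mRNA end, had 4.39 with 68.6.

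Among the cell cycle genes of the list, Cdk2 had enrichment 5.84 with 42.9 treatment reads, Ccne1 6.98 with 57.4 and Ccne2 6.7 with 74.7, while E2f2 had 5.71 with 46.4 and E2f3 10.4 with 102. Of the histone chaperones and their partners, Hira, which deposits replication-independent H3, had the highest enrichment of the list, 13.5 with 125 treatment reads. Asf1a had 9.54 with 39, Chaf1b 8.57 with 52.1 and Nasp 9.13 with 52.7. Hat1, which acetylates new H4, had 6 with 64.2. The 5 genes without a TSS inside a peak were Zfp473, E2f1, Nfyb, Asf1b and Chaf1a.

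Replication-independent histone genes are transcribed through the cell cycle or in special cell types. Of those listed here H2afj lies beside Hist4h4, and its peak was the one 3120 bp from the Hist4h4 start. Of 13 such genes, 11 had a TSS inside a peak, or 84.6% (57.8 to 95.7%), beside the 47.7% of all protein-coding genes, with a median enrichment of 7.71. The H3.3 genes H3f3a and H3f3b had enrichment 9.42 with 97.2 treatment reads and 8.88 with 90. Of the H2A variants, H2afz had 7.71 with 87.6, H2afx 8.98 with 116, H2afy 4.6 with 46.4, H2afy2 7.84 with 80.3 and H2afj 5.36 with 77.3. The linker variants H1f0, H1fx and H1fnt had 7.59 with 80.7, 8 with 141 and 7.6 with 52. Cenpa, the centromeric H3, had 5.25 with 35. H2afv and H1foo had no TSS inside a peak. The 11 peaks lay between 4.6 and 9.42, inside the 3.15 to 12.7 of the cluster histone peaks.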

How the data were processed

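The members and gene lists were chosen with earlier results of these data known. Reads of the 3 Zeb1 ChIP libraries and the 1 input library were reduced by the authors to 30 M random reads per sample and aligned with STAR 2.4.2a to mm10, keeping unique alignments, duplicates were removed with Picard 1.136, and peaks were called for each library against the input, kept when present in at least 2 of 3, unified and annotated with HOMER 4.7. The deposited treatment and input reads are a signal, the authors' mean number of reads per peak. The deposited enrichment is the authors' mean ratio over input after normalization for mapped reads. As the deposited p-value was 0 for each of the 17435 peaks, it ranked nothing. Their lowest enrichment was 2 and their lowest treatment reads 20. Values per library were not used here, so no SD, left-out library or test between libraries was made. Intervals are 95% Wilson intervals for counting error only.

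Gene starts came from 45756 curated RefSeq transcripts of GRCm38.p6, and older histone symbols were matched by Entrez ID. Named in full were the 5 highest and 5 lowest histone peaks, those with the most and fewest reads, over 5 kb from the TSS, over divergent pairs or in the Hist3 and Hist4 clusters, and context genes with a peak. Pom121l2, Zfp184, Zfp322a, Hfe and Nxnl2 were named after their values were seen. Motif, TSS and repeat searches were tested on simulated data. Scripts ran under Python 3.11.15 with pysam 0.24.0, pandas 2.3.3, SciPy 1.17.1, NumPy 2.4.6 and matplotlib 3.10.9.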

Additional observations from a re-analysis of the deposited data

How the results depend on the processing

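The number of histone peaks was 19 with enrichment of at least 5 and 23 with peaks closer than 1 kb merged where 25 were reported. The 40 histone genes with a TSS inside a peak became 40, 41 and 40 with the TSS within 500 bp of a peak, 1000 bp of a peak or 1000 bp of its centre, and 32 with stricter peaks. With only genes named in the list within 5 kb the count was 24, since the list names 1 gene per peak. With GENCODE M21 starts, an alternative chosen after seeing the data, it was 38. The median enrichment of 6.42 was 6.43 within 1 kb of a TSS, and 3.01 as the quotient of the treatment and input reads of the list, and the cause of this shift was not tested. The 18 histone peaks with the Zeb1 motif became 20 with CACCTG, 3 in the 400 bp at the centre, a shorter window, and 11 on the forward strand alone, which searches 1 strand. Among all peaks the share with the motif was 76.8%, and 54.4% on the forward strand alone. The 9 divergent pairs stayed at 9 with 500 bp of flank. With 100-base stretches, also added after seeing the data, the median share found once around starts inside a peak was 85.5%, beside 73.0% with 50, and the number of histone genes with a share under 10% was 4, beside 8 with 50. The share of protein-coding histone genes with a TSS inside a peak, 55.2%, was 62.7% and 58.7% without the genes under 10% at 50 and 100 bases, a cut also set after seeing the data. No paired analysis was possible because the list holds 1 averaged value per peak. With 23 to 75.2 treatment reads per histone peak and no spread between libraries, differences between single peaks could not be tested.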
